A study of Mus musculus with 16 samples.

Results

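The 10 genes described here are markers used for periodontal progenitor cells and for cells that wrap blood vessels: Gli1, Lrig1, Lepr, Acta2, Pdgfra, Pdgfrb, Mcam, Cspg4, Rgs5 and Thy1. They were taken by gene symbol from a table of 55359 genes, each matched 1 row, and all 10 had enough counts to be tested. Expression was measured by poly(A) RNA sequencing of periodontal ligament, the fibrous tissue between tooth root and bone, from wild-type C57BL/6J male mice aged 9 weeks. Control mice had no treatment, ligature mice had a silk thread tied round the upper left second molar to cause periodontitis, and trauma mice had the same molar raised with composite resin so that it took excess biting force (traumatic occlusion). Mice of the fourth group had both, and each of the 4 groups had 4 libraries. The labels do not say whether 1 library came from 1 mouse, nor how long the ligature or the resin was in place, so the p-values below describe how these libraries vary, and some of that may be technical. In this bulk tissue, fewer cells of a type and less RNA per cell cannot be told apart.

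Gli1 is a transcription factor that is switched on by hedgehog signalling, and Gli1+ cells near the neurovascular bundle are used as periodontal stem cells in lineage tracing. Lrig1 and Lepr mark other progenitor and stromal cells, and Pdgfra and Thy1 are broad fibroblast and mesenchymal markers. Pericytes and vascular smooth muscle cells, the mural cells of vessels, are marked by Pdgfrb, Mcam, Cspg4, Rgs5 and Acta2. No single one of these genes is restricted to 1 cell type: Mcam is also made by endothelial cells, Acta2 by myofibroblasts, and Thy1 by T cells and neurons.

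Library totals ran from 58458102 to 77468584 counts. Markers of ligament fibroblasts were high in every library (14 genes, none at 0 in any library, summed level 49770 to 126163 CPM, counts scaled by library total and TMM factor). The list holds collagen genes and was not set beside other connective tissues, so it cannot tell ligament from them. Some libraries stood apart. In 3 libraries, level rose less steeply with transcript length (slope of log2 CPM on log2 length of 0.380 in ligature 2, 0.527 in the second with both treatments and 0.501 in the third, against 0.672 in trauma 3 and 0.782 to 1.08 in the other 12). Skeletal muscle markers (13 genes) summed to 1550.2 CPM in ligature 2, 352 in control 3 and 279 in ligature 3, and to 4.33 to 203 CPM elsewhere. The summed level of 12 oral epithelium markers was 1461 to 11862 CPM in the control libraries and 4665 to 29485 with trauma, but 1522 to 2379 with the ligature and 821 to 2699 with both. In the edgeR fit 7 of the 12 fell with the ligature alone, against 4.78% of all genes. All 12 fell over the 8 libraries with a ligature against the 8 without (10 with either set of 3 libraries left out), against 10.7% of all genes. Krt1, Lor, Dsp and Krt13 had the lowest p. The part of these differences in the results was not tested, but values with and without the libraries are given where they move a call. Leaving out the 3 libraries of flat slope keeps only ligature plus trauma 1 and 4 in that group. Leaving out the 3 muscle-rich ones keeps only ligature 1 and 4 in the ligature group. Such fits have less power to make a call.

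Compared per kilobase of transcript, so that genes can be set beside each other, Rgs5 (36.1 CPM per kb), Pdgfra (28.6) and Pdgfrb (19.6) were the most abundant of the 10 in control ligament. Lepr (12.3), Acta2 (11.6), Mcam (5.50) and Cspg4 (2.76) followed, and Gli1 (0.505), Lrig1 (0.343) and Thy1 (0.230) were rare transcripts. With the ligature alone the order on this scale changed: Acta2 came first at 99.2 CPM per kb, Mcam reached 28.9 and stood between Pdgfra (35.0) and Pdgfrb (20.6), and Gli1 became the lowest at 0.0637. The low counts of Gli1 (4 to 35 in ligature) and Thy1 (5 to 75 in control) limit their precision.

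**Figure D1:**
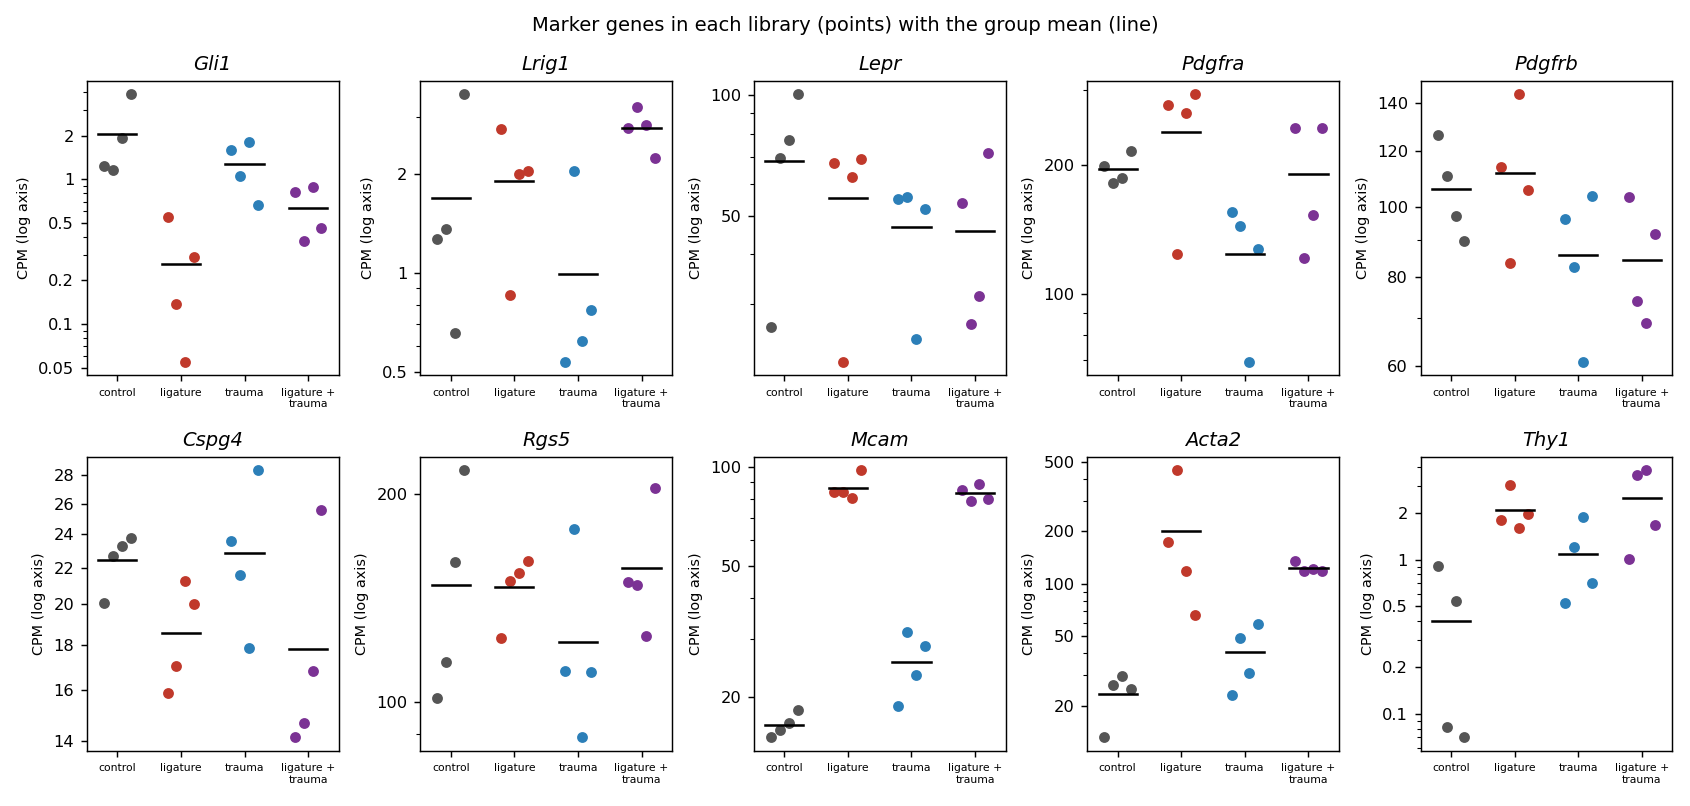
Level of each of the 10 genes in CPM (log axis, a separate scale for each gene) in the 16 libraries, as points by group with a line at the group mean (n = 4). Mcam and Acta2 are higher in all 8 libraries with a ligature than in all 8 without, while Rgs5, Pdgfrb and Lepr overlap between all groups.

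The ligature moved a few of these markers strongly and left others within the spread. Against control, ligature alone raised Mcam and Acta2 and lowered Gli1, so that 3 of 10 genes passed the test (edgeR quasi-likelihood, Benjamini-Hochberg adjusted p under 0.05 over 20953 genes), against 10.7% of all genes (5.88% higher and 4.78% lower). In 4 of 10, Thy1 included, the ligature and control libraries did not overlap, against 19.1% of all genes. The median log2 fold change of the 10 was 0.13, beside -0.05 for all genes. Over the 8 libraries with a ligature against the 8 without, Mcam, Acta2 and Thy1 rose and Gli1 fell, 4 of 10 against 21.5% of all genes (10.8% higher and 10.7% lower). Mcam and Acta2 were the 2 of 10 whose libraries with and without a ligature did not overlap, against 4.62% of all genes. Without the 3 muscle-rich libraries 2 of 10 passed for ligature against control (Mcam and Acta2), against 2.70% of all genes. In that fit 3 of 10 passed over all ligature libraries (Mcam, Acta2 and Gli1), against 13.2%. Without the 3 libraries of flat length slope the same 3 genes passed for ligature against control, against 7.99% of all genes. There 4 of 10 passed over all ligature libraries, against 13.1%, with Pdgfra in place of Thy1.

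Mcam (ENSMUSG00000032135.16), the adhesion molecule CD146 of pericytes and endothelial cells, gave the clearest separation. Its level was 15.1, 15.8, 16.6 and 18.2 CPM in the control libraries. It was 83.7, 83.6, 80.7 and 97.8 CPM with the ligature. With trauma it was 18.7, 31.4, 23.4 and 28.5 CPM. Every trauma library lay above every control library, and every ligature library lay far above both. With ligature plus trauma it was 85.3, 79.1, 88.8 and 79.8 CPM, a range that overlapped only with ligature alone. Group means were 16.4 ± 1.36 CPM (SD, n = 4), 86.5 ± 7.69, 25.5 ± 5.62 and 83.2 ± 4.63 in control, ligature, trauma and ligature plus trauma. The log2 fold change against control was 2.39 ± 0.18 (SE) with the ligature (edgeR adjusted p = 4.20e-06) and 2.34 ± 0.18 with both (edgeR adjusted p = 5.08e-06). In each of these comparisons it had rank 2 of 20953 genes by p, and over all 8 ligature libraries the change was 2.05 ± 0.13 (edgeR adjusted p = 1.94e-07), higher in 64 of 64 pairs of libraries.

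Mcam rose beside the endothelial markers. Of 14 endothelial genes, 9 rose and none fell with the ligature alone, against 5.88% of all genes higher. Over all ligature libraries 12 rose, against 10.8% of all genes, with a median log2 fold change of 1.21 (all genes -0.05). The same number, 12, rose without the 3 muscle-rich libraries and without the 3 of flat length slope. Those with the lowest p were Egfl7 (1.52 ± 0.19), Esam (1.36 ± 0.18), Plvap (1.19 ± 0.16) and Cdh5 (1.24 ± 0.19), which encode a secreted vascular factor, a junction protein, a fenestral diaphragm protein and VE-cadherin. None of the 14 was at 0 in any library, and their summed level was 317 to 542 CPM for control and 293 to 540.4 for trauma, against 931 to 1209 for ligature and 926 to 1085 for both. As a share of that sum, Mcam was 3.37 to 4.76% in control and 7.43 to 8.98% in ligature. With trauma it was 4.41 to 7.98%, and with both 7.35 to 9.59%. The ligature and control shares did not overlap. Which cells carried the Mcam RNA was not tested.

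**Figure D2:**
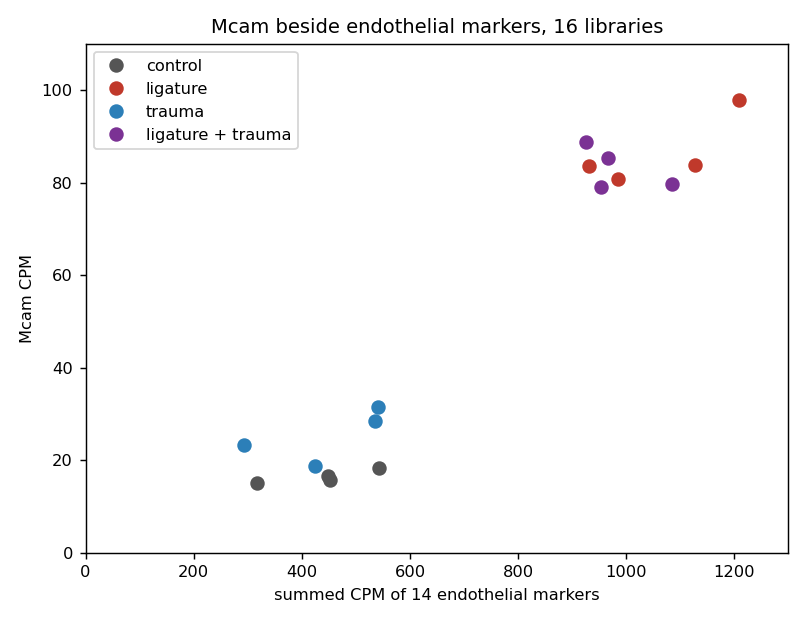
Mcam level (CPM, vertical axis) against the summed level of 14 endothelial markers (CPM, horizontal axis) in the 16 libraries, coloured by group. The 8 libraries with a ligature lie at 926 to 1209 CPM of endothelial markers and 79.1 to 97.8 CPM of Mcam, and the 8 without at 293 to 542 and 15.1 to 31.4 CPM.

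Acta2 (ENSMUSG00000035783.10), smooth muscle alpha-actin, rose as strongly but less evenly. Its level was 13.2, 26.2, 29.6 and 25.1 CPM in control. In ligature it was 175, 449, 118 and 65.9 CPM. In trauma it was 23.1, 49.1, 30.7 and 58.9 CPM. All ligature libraries were above all control and trauma libraries, but ligature 2, the library richest in muscle markers, was the highest of all. With ligature plus trauma the level was 135, 119, 122 and 118 CPM, a narrow range inside that of the ligature group. Means were 23.5 ± 7.14, 202 ± 171, 40.5 ± 16.4 and 124 ± 7.62 CPM (SD, n = 4) in control, ligature, trauma and both. The log2 fold change was 3.10 ± 0.49 for ligature against control (edgeR adjusted p = 0.00123) and 2.39 ± 0.47 for both against control (edgeR adjusted p = 0.00585). Without ligature 2 the first was 2.32 (edgeR adjusted p = 0.00136), so the rise did not rest on that library but its size did. With the length slope as a covariate the second was 1.76 (edgeR adjusted p = 0.0220).

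Regulatory sequence just before the start of transcription is shown for these 2 genes, since they moved together. RefSeq promoter entries (GRCm38.p6, 250 bases before the annotated start) were searched for 7 of the 10 genes. Gli1, Thy1 and Pdgfrb were not searched. The CArG box, the site of serum response factor that smooth muscle genes use, was searched exactly and with 1 base off in its middle, on both strands, as were TATAAA (the TATA box), TGACGTCA, GGGCGG (the GC box), CCAAT (the CCAAT box) and the Gli site GACCACCCA. None of these 7 genes held the strict CArG box, TATAAA or the Gli site GACCACCCA. Acta2 alone held CArG boxes with 1 base off, at -84 and -34 from the start. Such a match stood in 8.59% of 32851 promoter windows, the strict form in 1.47%. Mcam held TGACGTCA, the full cyclic AMP response element, at -29, found in 1.55% of windows, and 5 copies of GGGCGG, found at least once in 32.7%. No 2 of these matches overlapped. Each stretch below has 30 bases, 5′ to 3′, with the match in capitals. GENCODE M21 places these bases inside an exon of the same genes.
Acta2 at -84 (chr19:34255438-34255467, minus strand): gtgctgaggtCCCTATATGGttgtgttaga
Acta2 at -34 (chr19:34255388-34255417, minus strand): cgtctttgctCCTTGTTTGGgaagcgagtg
Mcam at -29 (chr9:44134618-44134647, plus strand): ccccgccccccTGACGTCAgcccccgacag
A match is a run of letters, and binding at these places was not measured.

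Other contractile genes did not follow Acta2 as a group. Of 16 vascular smooth muscle and contractile genes, 2 rose and 2 fell with the ligature alone, beside 5.88% of all genes higher and 4.78% lower. Over all ligature libraries 4 rose and 2 fell (median log2 fold change 0.36), beside 10.8% of all genes higher and 10.7% lower (median -0.05). The counts were 2 and 2 without either the 3 muscle-rich libraries or the 3 of flat length slope. Actg2, the enteric gamma-actin, went from 0.0322 ± 0.0643 CPM in control and 0.528 ± 0.281 in trauma to 7.42 ± 3.95 in ligature and 4.50 ± 0.518 in ligature plus trauma (SD, n = 4). Its log2 fold change of both against trauma was 3.09 ± 0.81 (edgeR adjusted p = 0.0345), and no fold is given against control, where counts were near 0. Reads of Acta2 and Actg2, which are close in coding sequence, could be split between them by the counting. Myl9, a myosin light chain, rose by 1.06 ± 0.26 over all ligature libraries (edgeR adjusted p = 0.00852). Mylk, the myosin light chain kinase, fell by 0.83 on the log2 scale (edgeR adjusted p = 0.00256), and Itga8, an integrin subunit of smooth muscle, fell by 2.35 (edgeR adjusted p = 0.00400). Among skeletal muscle markers 3 of 13 rose over all ligature libraries (Acta1, Ckm and Des), against 10.8% of all genes, and none with the ligature alone. The number was 2 without the 3 muscle-rich libraries and 1 without the 3 of flat length slope. The part of muscle markers in the contractile values was not tested. With the 3 libraries richest in them left out, Acta2 still rose with the ligature by 2.46 (edgeR adjusted p = 0.0118).

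The remaining mural markers passed no comparison in the fit of all 16 libraries. Rgs5 (ENSMUSG00000026678.11), a regulator of G protein signalling enriched in pericytes, was at 101, 114, 159 and 217 CPM in control. It was at 124, 149.9, 154 and 159.9 CPM in ligature. These ranges overlapped fully, and the log2 fold change was -0.01 ± 0.26, with a 95% interval of -0.56 to 0.54 (edgeR adjusted p = 0.988). Trauma libraries held 88.9 to 178 CPM of Rgs5, and libraries with both 125 to 204 CPM. Pdgfrb (ENSMUSG00000024620.12), the receptor through which endothelial PDGF-B recruits pericytes, was at 126, 111, 97.3 and 89.9 CPM in control and at 114, 83.6, 144 and 106 in ligature. Its log2 fold change was 0.08 (95% interval -0.38 to 0.54, edgeR adjusted p = 0.861). Trauma libraries held 60.8 to 104 CPM of Pdgfrb and those with both held 68.9 to 103. For Rgs5 and Pdgfrb these intervals leave out a change as large as that of Mcam.

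Cspg4 (ENSMUSG00000032911.7), the NG2 proteoglycan of pericytes, did not pass in the fit of all libraries. Its level was 20.1, 22.7, 23.3 and 23.8 CPM in control and 15.9, 17.0, 21.2 and 20.03 in ligature. It was 23.6, 21.6, 17.9 and 28.4 CPM in trauma and 14.1, 14.7, 16.8 and 25.6 in both. The groups overlapped, with ligature plus trauma 4 standing above the rest of its group. Over all ligature libraries the log2 fold change was -0.32 ± 0.15 (edgeR adjusted p = 0.143, lower in all but 10 of 64 pairs). Without ligature plus trauma 4 it was -0.43 (edgeR adjusted p = 0.0356).

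Of 15 further pericyte markers, 2 rose and 2 fell over all ligature libraries, with a median log2 fold change of 0.08. That median was 0.41 without the 3 muscle-rich libraries (1 rose and 2 fell) and 0.40 without the 3 of flat length slope (2 rose and 1 fell). The counts over all ligature libraries lay close to those of all genes, with 10.8% higher and 10.7% lower (median -0.05). Higd1b, a hypoxia-inducible mitochondrial protein gene, rose by 1.39 ± 0.36 (edgeR adjusted p = 0.0120), and Foxs1, a forkhead factor, by 1.02 ± 0.33 (edgeR adjusted p = 0.0382). Gucy1a1, a subunit of the nitric oxide receptor guanylate cyclase, fell by 1.83 on the log2 scale (edgeR adjusted p = 0.00181), and Notch3, the Notch receptor of mural cells, by 0.90 (edgeR adjusted p = 0.0249). Gucy1a1 went from 59.1 ± 5.69 CPM in control to 16.4 ± 7.71 in ligature and 12.2 ± 5.63 in both (SD, n = 4). With the ligature alone only Higd1b (higher) and Gucy1a1 (lower) passed.

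Gli1 (ENSMUSG00000025407.8) fell with the ligature. Its level was 1.23, 1.16, 1.94 and 3.86 CPM in control. In ligature it was 0.552, 0.137, 0.0550 and 0.290 CPM. Every ligature library lay below every control and trauma library. In trauma it was 1.58, 1.05, 1.80 and 0.665 CPM. With both it was 0.814, 0.373, 0.888 and 0.461 CPM, which overlapped with trauma and with ligature but lay below control. The log2 fold change was -2.98 ± 0.69 for ligature against control (edgeR adjusted p = 0.0131) and -1.99 ± 0.47 over all ligature libraries (edgeR adjusted p = 0.00718, higher in 2 of 64 pairs). For both against control it was -1.69 ± 0.66 (edgeR adjusted p = 0.0977), with DESeq2 at adjusted p = 0.0430. With control 3, ligature 2 and ligature 3 left out, ligature against control was -2.32 (edgeR adjusted p = 0.151). Only ligature 1 and 4 then remain in the ligature group, the highest of it for Gli1 (0.552 and 0.290 CPM). The difference over all ligature libraries kept its call in all 25 alternatives. Part of the Gli1 exons overlaps Arhgap9 and Gm47200 on the other strand in GENCODE M21 (62 and 265 of 4995 exonic bases), and whether the counting used strand is not given in the sources used here.

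The hedgehog pathway runs from secreted ligands (Shh, Ihh, Dhh) over the receptor Ptch1 and the transducer Smo to the Gli factors, and Gli1, Ptch1 and Hhip are its usual targets. Of 16 further pathway genes 14 could be tested. Over all ligature libraries 4 of these fell and none rose (median log2 fold change -0.32), beside 10.7% of all genes lower (median -0.05). With either set of 3 libraries left out, 4 fell and none rose. Gli2 fell by 1.44 on the log2 scale (edgeR adjusted p = 0.00181), from 4.37 ± 0.485 CPM in control to 1.26 ± 0.648 in ligature (SD, n = 4). Ptch1 fell by 1.05 (edgeR adjusted p = 0.00513), from 30.3 ± 11.8 to 10.2 ± 3.27 CPM. Smo fell by 0.63 (edgeR adjusted p = 0.00714) and Hhat, which attaches palmitate to the ligands, by 0.82 (edgeR adjusted p = 0.0182). With the ligature alone Gli2, Ptch1 and Smo passed, and with both against control Ptch1 alone (-1.33 ± 0.33, edgeR adjusted p = 0.0193).

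Not every pathway gene moved. Gli3, the factor that acts mainly as a repressor, was at 41.0 ± 7.81 CPM in control and 36.5 ± 8.68 in ligature (average ligature effect -0.04, edgeR adjusted p = 0.896). Shh was listed at 0 in every library, and Hhip, with at most 69 counts, was too low to test and listed at 0 in all 4 libraries with the ligature alone. Ihh stood at 0.822 ± 0.571 CPM in control and 0.0668 ± 0.105 in ligature (average ligature effect -1.95 ± 1.20, edgeR adjusted p = 0.261). Dhh stood at 2.63 ± 1.55 and 4.10 ± 1.08 CPM (0.91 ± 0.34, edgeR adjusted p = 0.0716). Beside the lower Gli1, Schwann cell markers were lower too: of 12, 6 fell, Mbp, Cdh19 and S100b among them, and none rose over all ligature libraries (3 or 4 fell with a set of 3 libraries left out). The share of all genes that fell was 10.7%. The sum of the 12 was 471 to 681 CPM for control and 286 to 642 for trauma, against 245 to 344 for ligature and 310 to 539 for both. The part of nerve-associated cells or of epithelium in the Gli1 values was not tested.

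**Figure D3:**
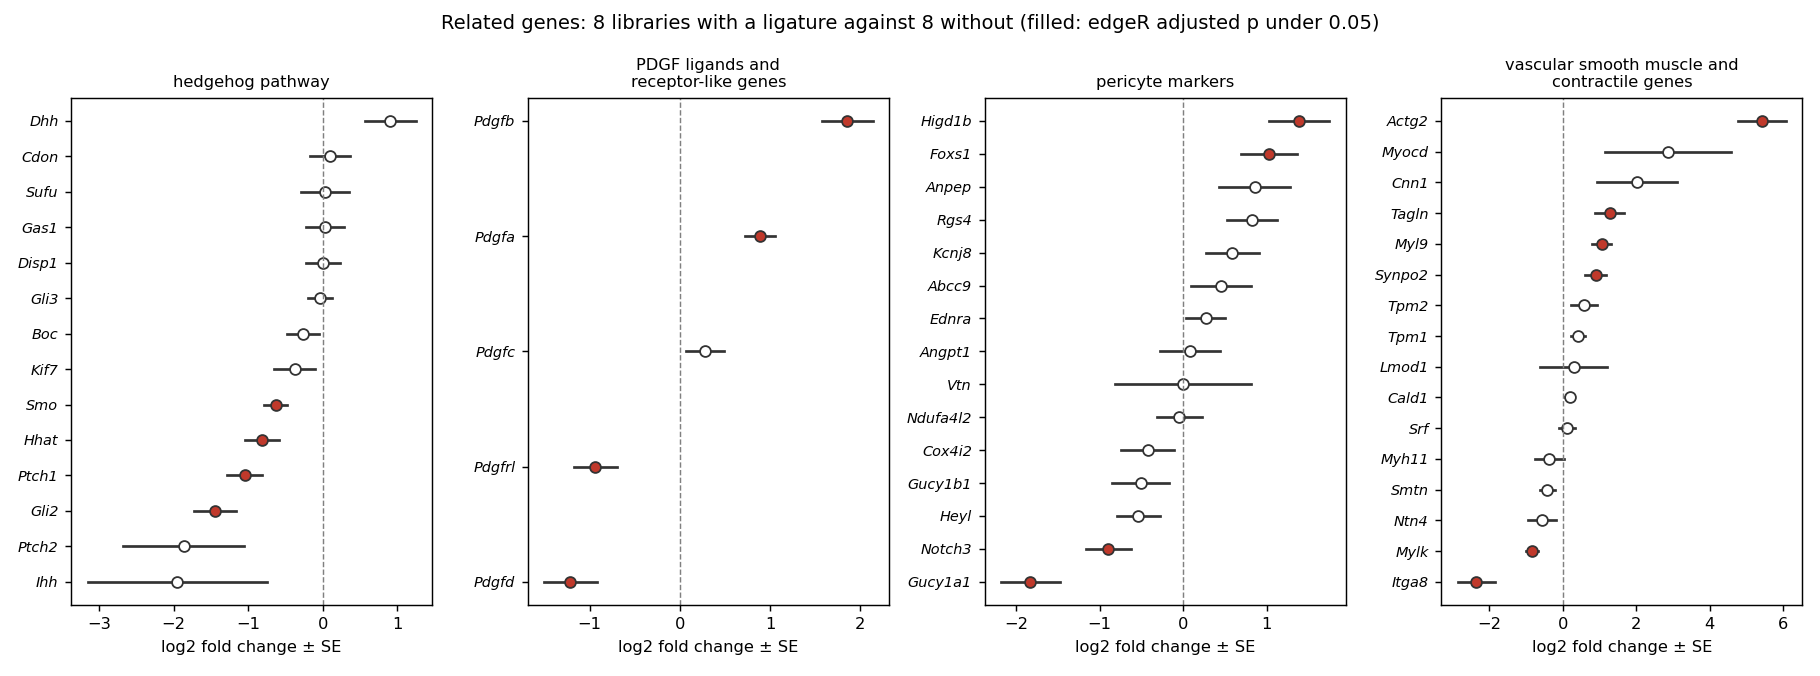
Log2 fold change with its SE over 8 libraries with a ligature against 8 without for 4 lists of related genes (hedgehog pathway, PDGF ligands and receptor-like genes, pericyte markers, contractile genes), 1 point per gene, filled where the edgeR adjusted p was under 0.05. All 4 filled hedgehog genes lie below 0, and the other 3 lists have filled genes on both sides.

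Pdgfra (ENSMUSG00000029231.16), the PDGF receptor of fibroblasts, gave calls that changed with the fit. It was at 199, 182, 186 and 216 CPM in control, a narrow range. In ligature it was at 276, 124, 265 and 292 CPM, so that 3 libraries were above control and ligature 2, with its short-transcript profile, was below. In trauma it was at 155, 144, 69.4 and 127 CPM, all below control. With both it was at 244, 121, 153 and 244 CPM, and the 2 low libraries were again those with a flat length slope. The log2 fold change over all ligature libraries was 0.45 ± 0.21 (edgeR adjusted p = 0.142). With the length slope as a covariate it was 0.78 ± 0.12 (edgeR adjusted p = 0.000600), without the 3 libraries of flat slope 0.73 (edgeR adjusted p = 0.0108) and without ligature 2 alone 0.56 (edgeR adjusted p = 0.0460). The call for Pdgfra therefore changed with how these 3 libraries were treated. With the covariate ligature alone against control also passed (0.71, edgeR adjusted p = 0.0174), as did both against trauma (0.85, edgeR adjusted p = 0.00589). The average ligature effect also passed in limma-voom with sample weights (0.52, limma-voom adjusted p = 0.0451).

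**Figure D4:**
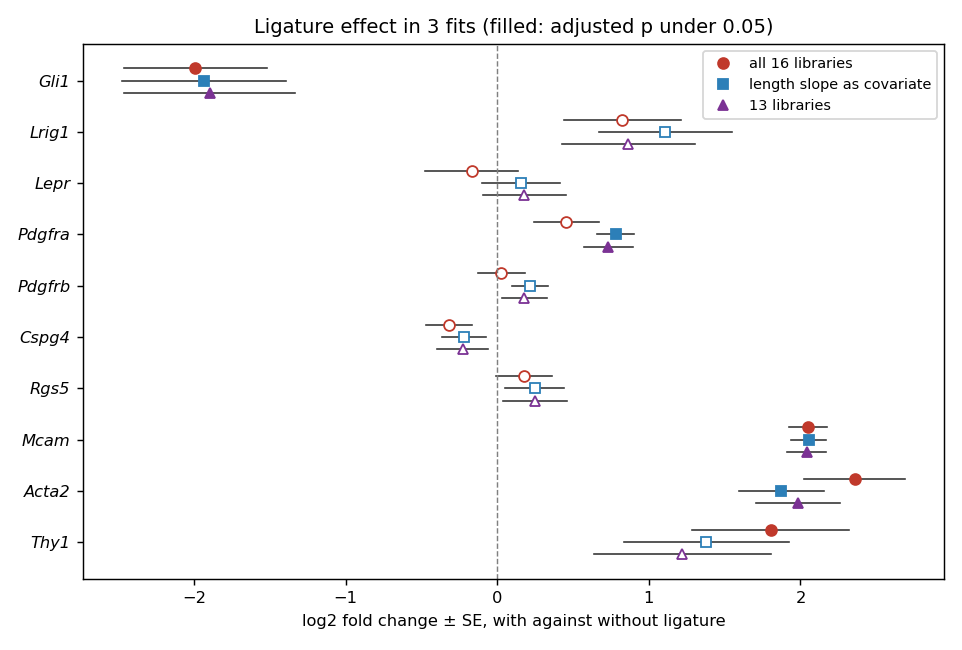
Average ligature effect (log2 fold change with SE) of the 10 genes in 3 edgeR fits: all 16 libraries, all 16 with the length slope as covariate, and 13 without the 3 libraries of flat length slope. Filled symbols have an adjusted p under 0.05, which Mcam, Acta2 and Gli1 have in all 3, Thy1 only in the first and Pdgfra only in the other two.

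The PDGF ligands changed in opposite directions. Pdgfb, the endothelial ligand that recruits pericytes, rose from 5.29 ± 2.32 CPM in control to 22.3 ± 4.43 in ligature and 21.2 ± 5.01 with both (SD, n = 4), and stood at 6.84 ± 4.42 with trauma. Its average ligature effect was 1.85 ± 0.28 on the log2 scale (edgeR adjusted p = 0.000312). Pdgfa, the ligand of the alpha receptor, rose by 0.88 ± 0.17 (edgeR adjusted p = 0.00160). Pdgfd, a ligand of the beta receptor, fell by 1.21 (edgeR adjusted p = 0.00770), from 497 ± 179 CPM in control to 169 ± 76.1 in ligature. Pdgfc was at 66.7 ± 19.3 and 63.2 ± 21.2 CPM (average ligature effect 0.28, edgeR adjusted p = 0.361), and the receptor-like gene Pdgfrl fell by 0.94 (edgeR adjusted p = 0.0107). Of these 5 genes, 2 rose and 2 fell over all ligature libraries (2 and 1 without the 3 of flat length slope), while neither receptor passed in the fit of all libraries. Among all genes 10.8% rose and 10.7% fell.

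Lepr (ENSMUSG00000057722.18), the leptin receptor that marks stromal cells of the marrow niche, did not pass in any comparison. Its level was 26.4, 69.6, 77.2 and 100.3 CPM in control and 67.6, 21.6, 62.5 and 69.2 in ligature. It was 55.1, 55.5, 24.6 and 51.8 CPM in trauma and 53.6, 26.8, 31.5 and 71.4 with both. Each group held 1 or 2 low libraries, and all groups overlapped. The average ligature effect was -0.17 ± 0.31 with a 95% interval of -0.82 to 0.48 (edgeR adjusted p = 0.737), and it was positive with the length slope as covariate or without the 3 libraries of flat slope. Lep, the ligand, was listed at 0 in all 16 libraries, and Socs3, a feedback inhibitor of cytokine receptors, rose by 1.56 ± 0.29 (edgeR adjusted p = 0.00149).

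Of 13 niche genes that Lepr+ stromal cells express, 2 rose and 1 fell over all ligature libraries (median log2 fold change 0.18), or 1 and 1 without the 3 muscle-rich libraries. Over all ligature libraries 10.8% of all genes rose and 10.7% fell (median -0.05). Angptl4, a lipase inhibitor, rose by 1.56 ± 0.32 (edgeR adjusted p = 0.00311), from 107 ± 46.9 CPM in control to 401 ± 130 in ligature (SD, n = 4). Ebf3, a transcription factor of these cells, rose by 1.30 ± 0.39 (edgeR adjusted p = 0.0259). Adipoq, the adipocyte hormone adiponectin, fell: it was at 0.320 ± 0.302 CPM in control, 0.562 ± 0.918 in trauma and 0 in all 8 libraries with a ligature (edgeR adjusted p = 0.0109). Cxcl12, the chemokine of the niche, fell with the ligature alone by 1.16 (edgeR adjusted p = 0.0381) but its average ligature effect was -0.65 (edgeR adjusted p = 0.0614).

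Lrig1 (ENSMUSG00000030029.15), a membrane protein that restrains ErbB receptors, was rare and variable. It was at 1.27, 1.36, 0.656 and 3.51 CPM in control and at 2.76, 0.859, 2.01 and 2.04 in ligature. It was at 0.537, 2.04, 0.623 and 0.773 CPM in trauma and at 2.77, 3.22, 2.84 and 2.24 with both. Libraries with both treatments were all above those with trauma alone, while control spanned most of the range through control 4. The log2 fold change of both against trauma was 1.48 ± 0.56 (edgeR adjusted p = 0.148). The average ligature effect was 0.83 ± 0.39 (edgeR adjusted p = 0.140, higher in 51 of 64 pairs). It passed without control 4 (1.14, edgeR adjusted p = 0.0455) or without trauma 2 (1.14, edgeR adjusted p = 0.0461). With all 16 libraries it passed in limma-voom with sample weights (1.05, limma-voom adjusted p = 0.0434).

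Among relatives and partners of Lrig1, 3 fell. Lrig3 fell by 0.74 (edgeR adjusted p = 0.00290) over all ligature libraries, from 20.7 ± 4.39 CPM in control to 10.7 ± 2.84 in ligature (SD, n = 4). Lrig2 was at 28.5 ± 2.24 and 21.1 ± 7.96 CPM (-0.43 ± 0.19, edgeR adjusted p = 0.123). Erbb2 fell by 1.19 (edgeR adjusted p = 0.00713) and Erbb3 by 1.63 (edgeR adjusted p = 0.00940), 2 receptors that epithelium and Schwann cells also express. Of 7 leptin and LRIG relatives tested, Socs3 was the 1 that rose and these 3 fell, beside 10.8% of all genes higher and 10.7% lower. Lepr and Lrig1 themselves were among neither.

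Thy1 (ENSMUSG00000032011.6), the CD90 antigen, was low in control at 0.906, 0.0817, 0.540 and 0.0702 CPM. In ligature it was 1.80, 3.06, 1.61 and 1.97 CPM. In trauma it was 0.524, 1.21, 1.89 and 0.705 CPM. All ligature libraries were above all control libraries, and trauma lay between them with overlap on both sides. With both treatments it was 1.01, 3.56, 3.81 and 1.67 CPM. The log2 fold change of both against control was 2.64 ± 0.75 (edgeR adjusted p = 0.0337), and for ligature against control it was 2.39 ± 0.75 (edgeR adjusted p = 0.0509). Over all ligature libraries it was 1.80 ± 0.52 (edgeR adjusted p = 0.0208, higher in 59 of 64 pairs).

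These Thy1 calls were the least stable of the set. Both against control lost its call in 10 of 26 alternatives, among them the fit without the 3 libraries of flat length slope (1.73, edgeR adjusted p = 0.310), and in turn without control 2 (edgeR adjusted p = 0.0807), control 3 (0.0543), control 4 (0.0727), ligature plus trauma 2 (0.0930) or ligature plus trauma 3 (0.105). Of the libraries with both, the fit without the 3 of flat slope keeps only ligature plus trauma 1 and 4. These were the lowest of their group for Thy1 (1.01 and 1.67 CPM). Ligature against control passed without control 1 (3.18, edgeR adjusted p = 0.0272) and with DESeq2 (adjusted p = 0.00848). Without the 3 muscle-rich libraries both against control was also lost, at a similar size (2.80, edgeR adjusted p = 0.0554). The average ligature effect was lost without the 3 libraries of flat slope (1.22, edgeR adjusted p = 0.196), without the 3 muscle-rich ones (1.79, 0.0783) and with the length slope as a covariate (1.38, 0.0967). T cell markers were listed because T cells carry Thy1. Over all ligature libraries 1 of 12 rose (Cd247, 1.56 ± 0.43, edgeR adjusted p = 0.0165) and none fell, beside 10.8% of all genes higher and 10.7% lower. With either set of 3 libraries left out, 0 rose and 1 fell. Their sum was 18.2 to 25.1 CPM for control and 20.01 to 62.8 for trauma, against 15.9 to 36.5 for ligature and 12.6 to 34.1 for both, and Cd8a was at 0 in all libraries with both.

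Trauma alone gave no call among the 10 genes (edgeR: 0 of 10, against 0.00477% of all genes, and 2 of 10 at an unadjusted p under 0.05, against 6.92%). Those 2 were Mcam and Pdgfra, and they were also the 2 whose trauma and control libraries did not overlap, against 6.93% of all genes. Mcam was higher in 16 of 16 pairs of libraries (log2 fold change 0.63 ± 0.17, unadjusted p = 0.00197, edgeR adjusted p = 0.499), and DESeq2 called it (0.64, adjusted p = 0.0345). Pdgfra was lower in 16 of 16 pairs (-0.66 ± 0.30, unadjusted p = 0.0456, edgeR adjusted p = 0.711), with trauma 3 the lowest. Every trauma library also had a flatter length slope (0.672 to 0.862) than every control library (0.869 to 1.08). Over the alternative fits the Pdgfra value ran from -0.79 to -0.25, and the part of transcript length in it was not tested. Acta2 (0.78 ± 0.45), Thy1 (1.43 ± 0.73) and Gli1 (-0.68 ± 0.64) had edgeR adjusted p-values of 0.764, 0.740 and 0.821. None of the genes in the 13 lists of related genes and cell type markers passed for trauma against control.

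With both treatments, Mcam, Acta2 and Thy1 rose against control, 3 of 10 genes against 12.5% of all genes (6.83% higher), and these 3 and Gli1 had ranges apart from control, against 21.2% of all genes. This comparison shares its control libraries with those of ligature and of trauma. No member passed for both against ligature (edgeR: 0 of 10 at adjusted p, 0 at unadjusted p, and 0 by DESeq2, against 0% of all genes at adjusted p and 3.50% at unadjusted p by edgeR), and for Mcam the difference was -0.06 with a 95% interval of -0.42 to 0.31. For Acta2 it was -0.71 (-1.67 to 0.25), for Gli1 1.29 (-0.11 to 2.69) and for Thy1 0.25 (-1.25 to 1.75), intervals too wide to call these levels equal. Against trauma alone, adding the ligature raised Mcam (1.71 ± 0.18, edgeR adjusted p = 0.000386), 1 of 10 genes against 5.48% of all genes (2.21% higher). Acta2 just missed the threshold (1.61 ± 0.46, edgeR adjusted p = 0.0524), and it passed without control 1 (edgeR adjusted p = 0.0499), ligature 2 (0.00979) or ligature 4 (0.0288), and without the 3 muscle-rich libraries (1.62, edgeR adjusted p = 0.0183).

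**Figure D5:**
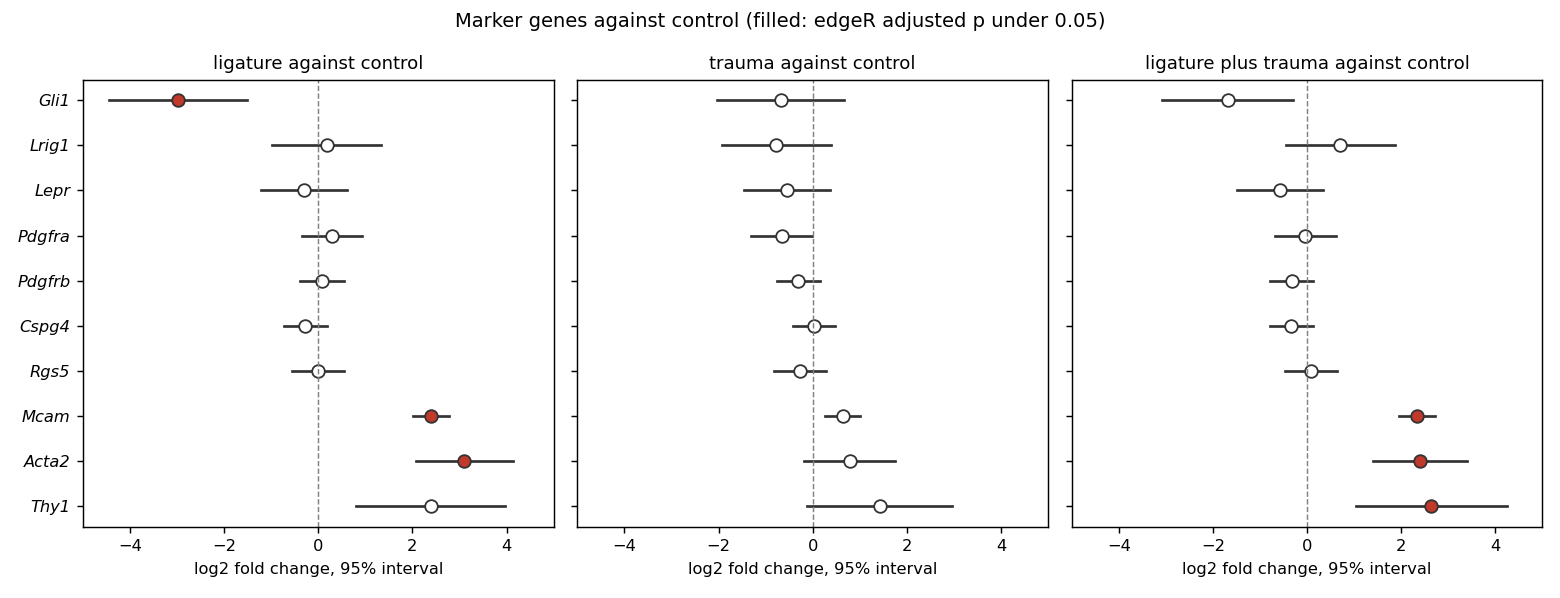
Log2 fold change against control with its 95% interval for the 10 genes under ligature, trauma and ligature plus trauma (4 libraries each), filled where the edgeR adjusted p was under 0.05. Filled points are Gli1, Mcam and Acta2 under ligature, none under trauma, and Mcam, Acta2 and Thy1 under both.

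The average effect of trauma passed for no member (edgeR: 0 of 10, against 0.00477% of all genes, 3 at an unadjusted p under 0.05, against 5.66%, and 0 by DESeq2). The 3 were Pdgfra (-0.49), Pdgfrb (-0.35) and Mcam (0.29), all at edgeR adjusted p = 0.790. Whether trauma changed the effect of the ligature was tested as an interaction, and no member passed (edgeR: 0 of 10, against 0% of all genes, 3 at an unadjusted p under 0.05, against 4.93%, and 0 by DESeq2). Those 3 were Mcam (-0.69 ± 0.24), Acta2 (-1.49 ± 0.64) and Gli1 (1.97 ± 0.92), each with a sign that means a smaller move by the ligature when trauma was present, and the lowest edgeR adjusted p was 0.969. With each library left out in turn, the value ran from -0.81 to -0.57 for Mcam and from 1.47 to 2.65 for Gli1. For Acta2, whose rise owed its size to ligature 2, it ran from -1.78 to -0.70.

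Among themselves the 10 genes followed several patterns. Likeness was measured as the root mean square difference of log2 CPM over the 16 libraries, each gene centred on its own mean, so smaller is more alike. The nearest member to Mcam was Acta2 (0.61), to Pdgfra it was Pdgfrb (0.37), and to Pdgfrb it was Cspg4 (0.36). Pdgfrb and Cspg4 spread by only 0.31 and 0.29 around their own means, less than the distance between them. The spread of Pdgfrb was also below its distance to Pdgfra. These short distances therefore do not show that Pdgfrb shared a pattern with Cspg4 or Pdgfra. The pair farthest apart was Gli1 and Thy1 (2.56). Of 11096 genes with a mean log2 CPM of at least 2, Vwa1, Meox1 and Gpr137b-ps were the most like Mcam (0.27 to 0.31) and Tm4sf1, Cd68 and Fxyd5 the most like Acta2 (0.38 to 0.45). Bglap, Gpc3 and Bglap2 were the most like Gli1 (0.74 to 0.80), where Bglap and Bglap2, the osteocalcin genes, are near-identical copies that the counting could split. Serpina3g, Ifitm1 and Pclaf were the most like Thy1 (0.73 to 0.78), and these distances for Gli1 and Thy1 are large.

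For the other 6 members the most alike were Trim35, Lama4 and Mgat5 for Pdgfra, Txlna, Pcsk7 and Ext2 for Pdgfrb, Dock10, Epha3 and Grb10 for Lepr, Esf1, Creb5 and Cops2 for Rgs5, Mfap1a, Mfap1b and Rpap2 for Cspg4, and Speg, Msr1 and Hcls1 for Lrig1. All of these lay within 0.16 to 0.56 of the member they are listed with. The 6 members themselves spread by only 0.29 (Cspg4) to 0.88 (Lrig1) around their own means. A short distance therefore does not make their matches closer than those of Gli1 and Thy1.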

How the data were processed

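RNA from periodontal ligament was sequenced after poly(A) selection, per the labels' protocols. The authors deposited 1 table of gene counts for 16 libraries. Per the submitters' processing notes, the tools were DESeq2 1.32.0, StringTie 2.1.7, HISAT2 2.2.1, FastQC 0.11.9 and Trimmomatic 0.39 and the build GRCm39, with no roles stated. Counting step and strand setting: not given in the sources used here. Of 55359 rows, 52083 had a symbol; those without held 0.205% of counts.

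Counts were fitted with edgeR 4.0.16 (R 4.3.3): TMM scaling, minimum count of 10, 20953 genes, quasi-likelihood, 1 fit of 4 groups with 12 residual degrees of freedom, 8 comparisons (5 pairwise, the average effect of ligature and of trauma, and their interaction), Benjamini-Hochberg adjustment at 0.05 within each. The script was tested on simulated data. SE and 95% intervals come from the fit. CPM use TMM-scaled totals, and lengths are the longest coding transcript of GENCODE M21, since no annotation of the authors' build was used here. Fold changes of genes with few counts depend on edgeR's prior. Alternatives were DESeq2 1.42.0, its size factors, other filters, limma 3.58.1 voom with sample weights, a replicate block, a length covariate, sets of libraries left out (for gene lists, chosen after seeing the data) and each library in turn.

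The 10 genes and the gene lists were chosen with earlier results of these data known. Text names all members, up to 4 genes a list at the lowest p for the average ligature effect among those past the threshold, fixed ligands and relatives, and the 3 genes most like each member. No 2 libraries were copies (highest correlation of log2 CPM 0.948).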

Additional observations from a re-analysis of the deposited data

Results flagged for a closer look

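In 40 groups of 4 libraries (10 genes in 4 groups), 4 had 1 library set apart by a gap above Dixon's 95% critical value, where chance alone gives about 1 in 20 groups. Lrig1 in trauma 2 was at 2.04 CPM, above 0.537 to 0.773 CPM in the other trauma libraries. Lepr in ligature 2 was at 21.6 CPM, below 62.5 to 69.2 CPM, and Lepr in trauma 3 at 24.6 CPM, below 51.8 to 55.5 CPM. Pdgfra in ligature 2 was at 124 CPM, below 265 to 292 CPM. Ligature 2 also had the flattest length slope (0.380) and the most muscle RNA (1550.2 CPM over 13 markers), and the transcripts used for Lepr and Pdgfra are 5542 and 6834 bases long. Cspg4, at 8121 bases, was at 17.0 CPM in ligature 2, inside the 15.9 to 21.2 CPM of its group. Pdgfrb, at 5423 bases, was at 83.6 CPM there, the lowest of its group, but was not flagged. The part of length and of muscle RNA in these values was not tested.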

How the results depend on the processing

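Over 26 alternatives for the pairwise comparisons and 25 for the others, 1923 of 2050 values of the 10 genes kept their direction and their side of the threshold, no called value changed sign, and 87 values called in neither fit changed sign. Mcam and Acta2 kept their calls for ligature against control, both against control and the average ligature effect in all of them. For trauma against control the number of members that passed went from 0 to 1 with DESeq2, while the share of all genes went from 0.00477% to 0.546%. For both against trauma it went from 1 (5.48% of all genes) to 2 with DESeq2 (10.2%), the stricter filter (7.53%) and limma-voom with sample weights (4.45%). It was also 2 with the compared groups alone (5.94%) and the 3 muscle-rich libraries left out (5.68%). With the length slope as covariate it was 3 (8.56%), namely Mcam, Acta2 and Pdgfra. Leaving out each library in turn gave 1 to 2 (2.6% to 7.02% of all genes). No sign was seen that replicate numbers pair the libraries, which the labels do not state. The correlation of deviations was -0.157 to 0.215 for same numbers and -0.300 to 0.236 for different numbers. Of 16 libraries, 4 correlated best with their own number. With the replicate block 2 members passed for both against trauma (Acta2 at edgeR adjusted p = 0.0465), against 4.93% of all genes, and it changed no other call of a member. The cause of these changes was not tested.

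Genes called in all moved more. For ligature against control 2234 became 3698 with DESeq2, 614 without the 3 muscle-rich libraries, 1369 with the compared groups alone and 1430 to 2125 leaving out each library in turn. For both against control 2609 became 4263 with DESeq2, 743 without the 3 libraries of flat length slope, 1170 with the length slope and 1022 to 4332 leaving out each library. For both against trauma 1149 became 2096, 403, 1793 and 565 to 1525 under the same 4 settings, and for the average ligature effect 4515 became 5712 with DESeq2, 2991 without the libraries of flat slope and 2989 without the muscle-rich ones. DESeq2 called 114 genes for trauma against control, where edgeR called 1, 59 for the average trauma effect (1), 31 for both against ligature (0) and 51 for the interaction (0). Gli1 and Thy1 rest on few counts, so changes smaller than several-fold were hard to detect in them.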

Other observations

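The wider set of 24 mesenchymal progenitor genes moved in both directions over all ligature libraries: 4 rose and 4 fell, with a median log2 fold change of -0.06. For all genes the shares were 10.8% higher and 10.7% lower, with a median of -0.05. Cd34, shared by vessels and fibroblast progenitors, rose from 124 ± 8.71 CPM in control to 262 ± 15.9 in ligature (SD, n = 4; average ligature effect 0.96 ± 0.14, edgeR adjusted p = 0.000203). Eng, the endoglin co-receptor, rose by 0.84 ± 0.19 (edgeR adjusted p = 0.00637). Nt5e, the CD73 nucleotidase used beside Thy1 to define mesenchymal stromal cells, fell by 1.83 on the log2 scale (edgeR adjusted p = 0.00384), opposite to Thy1. Lgr6, a receptor for R-spondins, fell by 1.22 (edgeR adjusted p = 0.00876).

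Ligament fibroblast markers were lower more often than higher, 6 against 1 of 14 over all ligature libraries, with a median of -0.54, beside 10.7% of all genes lower and 10.8% higher. The counts were 4 lower and 2 higher without the 3 libraries of flat length slope, and 4 lower and 1 higher without the 3 muscle-rich ones. Thbs4 fell by 2.96 on the log2 scale (edgeR adjusted p = 5.17e-06), Tnmd by 1.57 (edgeR adjusted p = 0.000117) and Aspn by 1.26 (edgeR adjusted p = 0.00289), while the collagen gene Col12a1 rose, with a log2 fold change of 1.39 ± 0.25 for ligature against control (edgeR adjusted p = 0.00293).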
